A study of Mus musculus with 18 samples.

Results

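Insulin and IGF signalling genes were followed here in mouse brown adipocytes in which lipolysis was switched on, with and without blocked lipases. The set was chosen by symbol, as the rows of the count table named Igf1, Insr, Igf1r, Igf2r, Irs1, Irs2, Pik3r1, Igfbp3, Igfbp4 and Grb10, and all 10 were found among 20295 genes. The filter on low counts kept 9 of them and 12156 genes in all, and Igfbp3 was left out. The cells were wild-type BAT-LgT, 1 mouse line in which SV40 large T antigen immortalises brown preadipocytes, differentiated in culture. RNA-seq was performed on day 7 in 6 groups of 3 libraries. Treatment lasted 3 h in every group. In the first 3 groups it was DMSO (Vehicle), isoproterenol at 100 nM (ISO), which stimulates β-adrenergic receptors, or SR-3420. The last compound binds ABHD5, the co-activator of the lipase ATGL, and releases it from perilipin. Its dose is 10 µM per the labels, the study's text gives another dose, and the difference was not settled. In the other 3 groups, marked by Lipase Inh. before the name of the treatment, ATGL and HSL were inhibited from 1 h before it. Insulin (20 nM) was in the medium of all groups from day 0 to day 4 and was not added afterwards, and no group was stimulated with insulin or IGF1.

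Insulin and the insulin-like growth factors bind receptor tyrosine kinases, which phosphorylate insulin receptor substrate (IRS) adaptors, and these recruit phosphoinositide 3-kinase (PI3K), whose lipid product activates AKT. AKT restrains FOXO transcription factors, supports mTOR signalling and, in adipocytes, promotes glucose uptake, lipid synthesis and the suppression of lipolysis. IGF-binding proteins hold IGFs outside the cell, and adaptors such as GRB10 dampen signalling at the receptor.

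Of the members, Irs2 varied most across the 6 groups. With ISO, Irs2 rose 5.30-fold and Irs1 rose 2.05-fold against Vehicle, whereas Pik3r1, the p85α regulatory subunit of PI3K, fell to 0.473 of its Vehicle level and the IGF1 receptor Igf1r to 0.560. With SR-3420, Irs2 rose 2.91-fold, and Irs1 gave a fold of 1.05 that did not pass the test. When the lipases were inhibited, the effect of ISO on Irs2 was 1.27-fold and that of SR-3420 was 1.43-fold. The fall of Igf1r with ISO had nearly the same size with inhibitors (to 0.578), and Igf2r, Insr and Grb10 were lower with ISO than with Vehicle in the cells with inhibitors.

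Of the libraries, 17 held 10310447 to 21205032 counts. The remaining one, Lipase Inh. + SR-3420 replicate 2, held 4263755, of which 18.3% came from Lars2 (0.0397% to 0.121% elsewhere), and each result that turns on it is given without it. The label of brown adipocyte was checked against markers. The 8 brown adipocyte markers summed to 7673 to 12543 CPM (counts scaled to the size of the library), led by Adipoq and Fabp4, and all were present in every library, with Ucp1 from 1.39 to 789 CPM. The 8 preadipocyte or fibroblast markers summed to 154 to 256 CPM and the 3 markers of dividing cells to 403 to 773 CPM. The sums were at most 0.524 CPM for 3 endothelial, 5.88 CPM for 3 macrophage and 1.53 CPM for 3 muscle markers, with the macrophage gene Ptprc at 0 in all 18 libraries. The sums for dividing cells averaged 573 CPM with Vehicle, 626 with ISO, 698 with SR-3420, 601 with Lipase Inh. + Vehicle, 494 with Lipase Inh. + ISO and 622 with Lipase Inh. + SR-3420, and their part in the results below was not tested. In such bulk samples, fewer cells of a type and less RNA per cell cannot be told apart.

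Levels of different genes were compared as CPM per kilobase of counted length (mean ± SD, n = 3). In Vehicle cells the secreted binding protein Igfbp4 was highest at 270.2 ± 28.0, followed by Irs1 at 75.0 ± 4.34, Irs2 at 56.1 ± 7.25, Pik3r1 at 46.9 ± 5.05 and Insr at 37.7 ± 1.14. Below them came Igf1 at 23.5 ± 4.01, Grb10 at 19.4 ± 1.25, Igf2r at 10.5 ± 0.476 and Igf1r at 4.43 ± 0.166. The libraries of neighbours in this order overlapped for Irs2 and Pik3r1 and for Igf1 and Grb10, and for no other neighbouring pair. Per length, Insr transcripts thus stood well above those of Igf1r in Vehicle cells. With ISO, Irs2 reached 297 ± 12.2 and stood above Igfbp4 at 219 ± 9.55, so that an adaptor led the set in that group.

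**Figure D1:**
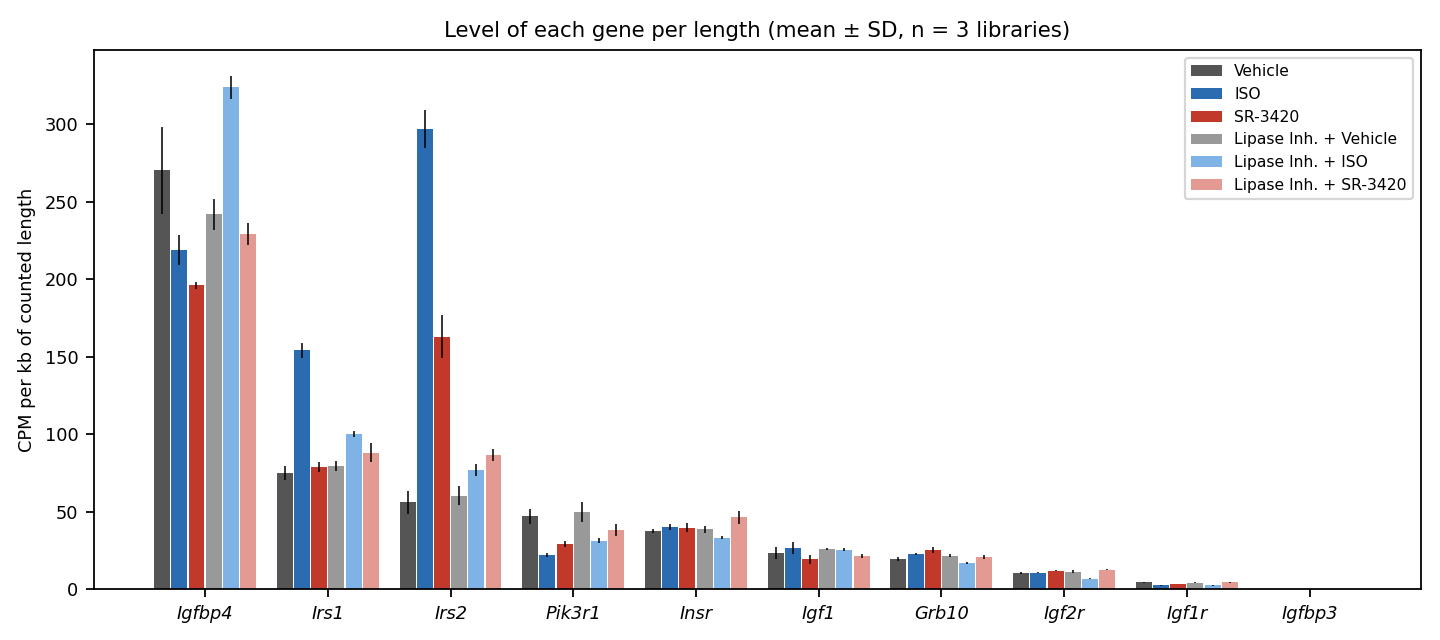
Level of each of the 10 genes in CPM per kilobase of counted length (vertical axis) in the 6 groups (bars, mean of 3 libraries; lines, SD), ordered by the Vehicle level. Igfbp4 leads with Vehicle at 270.2, and Irs2 goes from 56.1 with Vehicle to 297 with ISO.

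The question of the design is which effects of ISO are also seen when lipolysis is activated by SR-3420, and which are lost when the lipases are inhibited. A gene was called changed at a Benjamini-Hochberg adjusted p of at most 0.05 in edgeR's quasi-likelihood test, and fold changes are log2 values with their standard error (SE). With ISO against Vehicle, 3 of the 9 genes tested rose (Irs1, Irs2, Grb10), 3 fell (Igf1r, Pik3r1, Igfbp4) and 3 did not pass. Among all genes tested, 26.8% rose and 25.0% fell, so that a call by itself was common. At a log2 fold change of at least 1 in size, Irs1 and Irs2 rose and Pik3r1 fell, whereas 5.03% of all genes rose and 4.07% fell by as much. With SR-3420 against Vehicle, 3 rose (Irs2, Grb10, Igf2r), 4 fell (Igf1, Igf1r, Pik3r1, Igfbp4) and 2 did not pass, against 26.0% and 25.4% of all genes. Irs2 was the 1 member with a log2 fold change of at least 1, as 3.97% of all genes were. The median log2 fold change of the 9 was 0.10 with ISO and 0.07 with SR-3420, beside -0.02 for all genes in both comparisons.

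The inhibitors alone changed none of the 9 members by this test or by DESeq2, and 2 had an unadjusted p under 0.05 (Igfbp4, log2 fold change -0.16 ± 0.07, and Grb10, 0.16 ± 0.07). Of all genes, 0.913% were called. In the presence of the inhibitors, ISO raised 3 members (Irs1, Irs2, Igfbp4) and lowered 5 (Insr, Igf1r, Igf2r, Pik3r1, Grb10), against 29.4% and 28.3% of all genes, and no member reached a log2 fold change of 1. In DESeq2, too, no member reached that size. With SR-3420 and inhibitors, Irs2 and Insr rose and Pik3r1 fell, against 2.99% of all genes that rose and 1.36% that fell. The median of the 9 log2 fold changes was -0.22 for ISO with inhibitors and 0.05 for SR-3420 with inhibitors, beside -0.01 and 0.00 for all genes.

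The difference between the effects with and without inhibitors was tested as an interaction, in which a negative value means a more negative effect with inhibitors. For ISO it passed for 7 of the 9, above 0 for Pik3r1 and Igfbp4 and below 0 for Insr, Igf2r, Irs1, Irs2 and Grb10, against 14.9% of all genes above and 16.6% below. Irs2 was the 1 member below -1, as were 4.71% of all genes. For SR-3420 it passed for 4, above 0 for Igf1r and Igfbp4 and below 0 for Irs2 and Grb10, against 12.5% and 14.8%. Irs2 again was below -1, as were 2.42% of all genes, though this came to -0.92 without Vehicle replicate 1, -0.96 without SR-3420 replicate 3 and -0.95 without Lipase Inh. + Vehicle replicate 3. Between ISO and SR-3420 themselves, Igf1, Irs1 and Irs2 were higher with ISO and Igf1r and Pik3r1 lower, against 15.8% and 13.9% of all genes.

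The direction of small changes depended on how libraries were scaled. The trimmed-mean factors used here keep the median gene near no change, whereas scaling by total counts alone moves the median gene by -0.31 for ISO, -0.16 for SR-3420, -0.23 for ISO with inhibitors and -0.15 for ISO against SR-3420. Under total counts, 2 members rose and 5 fell with ISO (12.3% and 49.4% of all genes), 5 passed, all lower, with ISO and inhibitors (16.2% of all genes higher and 42.1% lower), 1 rose and 1 fell with SR-3420 and inhibitors (0.938% and 1.89%), and 3 were higher and 4 lower with ISO than with SR-3420 (6.38% and 25.0%). All changes below are relative to the median gene, and for a call given below that is lost under total counts the value under that scaling stands beside it.

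**Figure D2:**
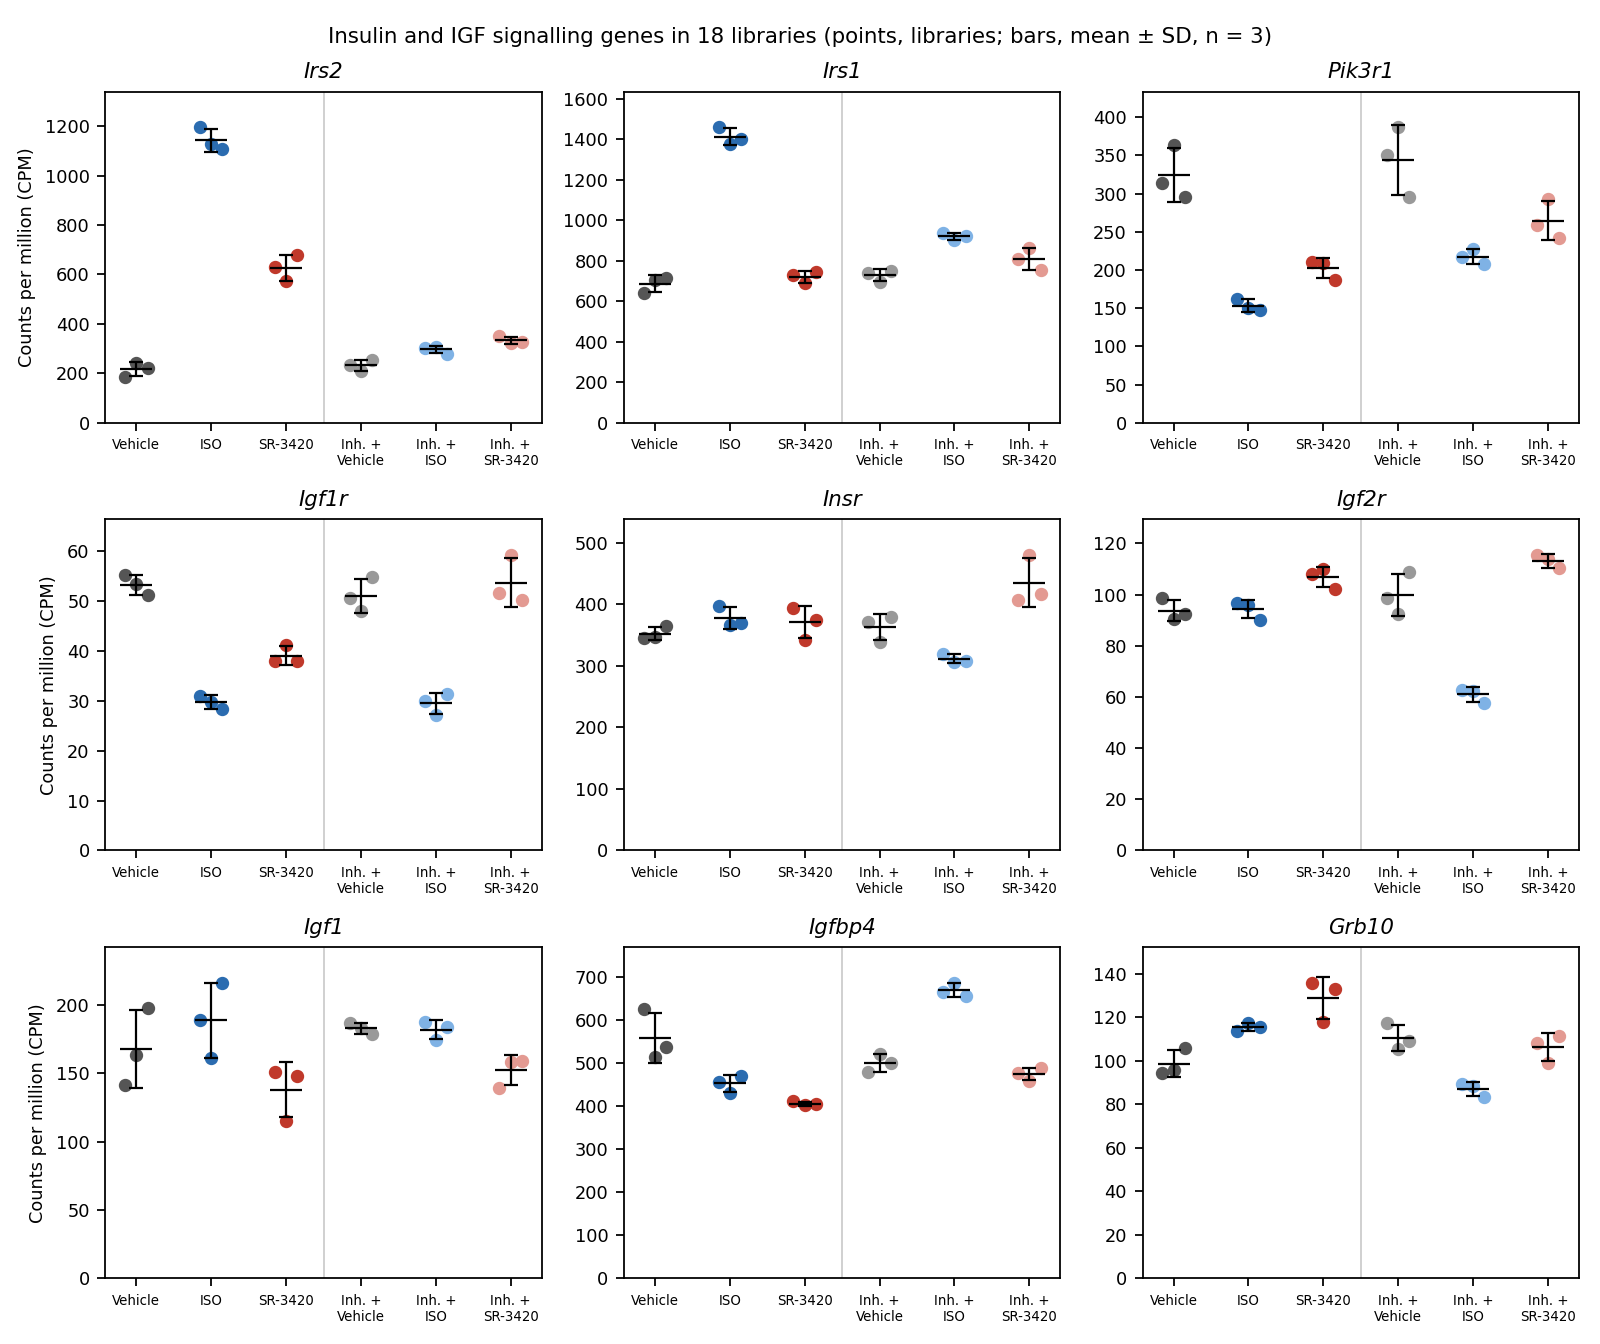
CPM of the 9 genes tested (vertical axes, each from 0) in the 6 groups, with and without lipase inhibitors (Inh.) on either side of the grey line; points are libraries and bars the mean ± SD (n = 3). Irs2 and Irs1 stand far above the other groups with ISO (1106 to 1196 and 1377 to 1459 CPM), and Igf1r is low in both ISO groups (27.2 to 31.2 CPM).

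The adaptor IRS2 couples the insulin and IGF1 receptors to PI3K. Its gene (chromosome 8, 10986964 to 11008430, minus strand, build mm9, as are all positions of genes below) had 186, 241 and 220.4 CPM in Vehicle libraries and 1196, 1127 and 1106 CPM with ISO. With SR-3420 the libraries had 631, 573 and 678 CPM. The 3 groups did not overlap, and those with SR-3420 lay between the others. The log2 fold change was 2.41 ± 0.09 with ISO (adjusted p = 4.6e-15, edgeR) and 1.54 ± 0.09 with SR-3420 (adjusted p = 8.41e-12), and ISO exceeded SR-3420 by 0.87 ± 0.09 (adjusted p = 1.56e-07).

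With the inhibitors, Irs2 had 236, 208 and 253 CPM with Vehicle, 304, 305 and 279 CPM with ISO and 349.7, 324 and 325 CPM with SR-3420. Every stimulated library still exceeded every Vehicle library with inhibitors, and lay below every library of its agent without inhibitors. ISO gave a log2 fold change of 0.35 ± 0.09 (adjusted p = 0.0017) and SR-3420 one of 0.52 ± 0.09 (adjusted p = 0.000882). Under total counts the value for ISO was 0.12 (adjusted p = 0.32). The interaction was -2.06 ± 0.12 for ISO (adjusted p = 5.28e-11) and -1.02 ± 0.12 for SR-3420 (adjusted p = 3.17e-06).

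IRS1 is another such adaptor, with a main part in insulin-driven glucose uptake of adipocytes. Irs1 (chromosome 1, 82229680 to 82288014, minus strand) had 642, 704 and 715 CPM with Vehicle and 1459, 1377 and 1399 CPM with ISO. With SR-3420 it had 730.1, 689 and 743 CPM. Only the ISO libraries stood apart, and those with SR-3420 overlapped the Vehicle libraries. Irs1 gave a log2 fold change of 1.04 ± 0.06 with ISO (adjusted p = 1.53e-11) and 0.07 ± 0.06 with SR-3420 (adjusted p = 0.383), and the difference between the agents was 0.97 ± 0.06 (adjusted p = 2.65e-10).

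In the cells with inhibitors, Irs1 had 738, 695 and 750.1 CPM with Vehicle, 937, 902 and 921 CPM with ISO, and 807, 863 and 754 CPM with SR-3420. The ISO libraries were again the highest, at levels between those of Vehicle and of ISO without inhibitors. The effect of ISO was 0.34 ± 0.06 (adjusted p = 0.000101; 0.11 under total counts, adjusted p = 0.219) and its interaction -0.70 ± 0.09 (adjusted p = 3.12e-06). For SR-3420 the effect with inhibitors was 0.15 ± 0.06 (adjusted p = 0.239) and the interaction 0.08 ± 0.09 (adjusted p = 0.543). On the other strand, Gm9747 shares 2822 exon bases with Irs1 and 9530052E02Rik shares 162 with Irs2 in GENCODE, and since whether the counting was stranded is not given in the sources used here, reads of these transcripts cannot be told apart.

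The promoters of both adaptors are shown because Irs1 and Irs2 rose most with ISO while Irs1 did not pass the test with SR-3420. RefSeq promoters on GRCm38.p6, 250 bases before to 50 after the start, were at hand for 9 of the 10 members (all but Insr), with 11 promoters in all. The motifs searched on both strands were the full cAMP response element TGACGTCA, its shorter form TGACG (which lies within the full one), the FOXO core TGTTTAC, the C/EBP-ATF response element TGATGNAA and the E-box CACGTG. The 250 bases before each start follow, 5′ to 3′ on the minus strand, at chr1:82291440-82291689 for Irs1 and chr8:11008930-11009179 for Irs2, with matches in capitals.
Irs1: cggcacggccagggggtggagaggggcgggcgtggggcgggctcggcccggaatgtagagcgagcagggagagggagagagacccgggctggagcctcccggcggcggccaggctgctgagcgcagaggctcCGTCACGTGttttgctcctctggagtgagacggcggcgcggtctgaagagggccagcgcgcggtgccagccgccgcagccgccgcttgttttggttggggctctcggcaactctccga
Irs2: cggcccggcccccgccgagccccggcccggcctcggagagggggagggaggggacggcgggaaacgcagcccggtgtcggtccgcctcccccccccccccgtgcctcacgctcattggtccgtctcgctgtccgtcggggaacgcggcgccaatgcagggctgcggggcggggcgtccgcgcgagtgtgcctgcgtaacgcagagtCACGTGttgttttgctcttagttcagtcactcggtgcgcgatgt
In Irs1 the capitals hold TGACG on the opposite strand, from position -118, and an E-box from position -115, which overlap, and in Irs2 they hold an E-box from position -44. The E-box occurred in 7.15% of the 32851 promoters of the table and TGACG in 20.8%. The E-box also stood in the promoter of Igf2r, and TGACG in those of Igf2r, Pik3r1 and Grb10. The full element, the FOXO core and the C/EBP-ATF element occurred in 1.79%, 3.65% and 3.97% of all promoters and in none of the 11. Both windows were rich in G and C, at 72.4% and 72.8%. Such matches describe letters and not binding.

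PIK3R1 holds the catalytic subunit of PI3K at the IRS proteins. Pik3r1 (chromosome 13, 102450716 to 102538172, minus strand) had 314, 363 and 296 CPM with Vehicle, 163, 150.0 and 148 CPM with ISO, and 210.3, 209.7 and 187 CPM with SR-3420. With inhibitors it had 350.1, 387 and 295 CPM with Vehicle, 217, 227 and 207 CPM with ISO, and 259, 293 and 242 CPM with SR-3420. Each stimulated group lay below its Vehicle group without overlap, with the lowest libraries in the ISO group without inhibitors. The log2 fold change was -1.08 ± 0.09 with ISO (adjusted p = 3.67e-09), -0.68 ± 0.09 with SR-3420 (adjusted p = 2.99e-06) and -0.66 ± 0.09 with ISO and inhibitors (adjusted p = 2.68e-06).

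The smaller changes of Pik3r1 kept their sign whichever library was left out, but their calls changed with the libraries or groups fitted. Its value for SR-3420 with inhibitors was -0.38 ± 0.09 (adjusted p = 0.0183), and the call was lost without Lipase Inh. + Vehicle replicate 1 (-0.37, adjusted p = 0.0807) or 2 (-0.29, adjusted p = 0.137) and without Lipase Inh. + SR-3420 replicate 1 (-0.37, adjusted p = 0.0643) or 3 (-0.32, adjusted p = 0.116). A fit of only the groups compared also lost this call (-0.39, adjusted p = 0.0537). The ISO interaction of 0.42 ± 0.13 (adjusted p = 0.0192) was lost without Vehicle replicate 2 (0.33, adjusted p = 0.0664) or Lipase Inh. + Vehicle replicate 3 (0.32, adjusted p = 0.0638). Its SR-3420 interaction was 0.30 ± 0.13 (adjusted p = 0.099) and passed without Lipase Inh. + Vehicle replicate 2 (0.39, adjusted p = 0.0318).

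**Figure D3:**
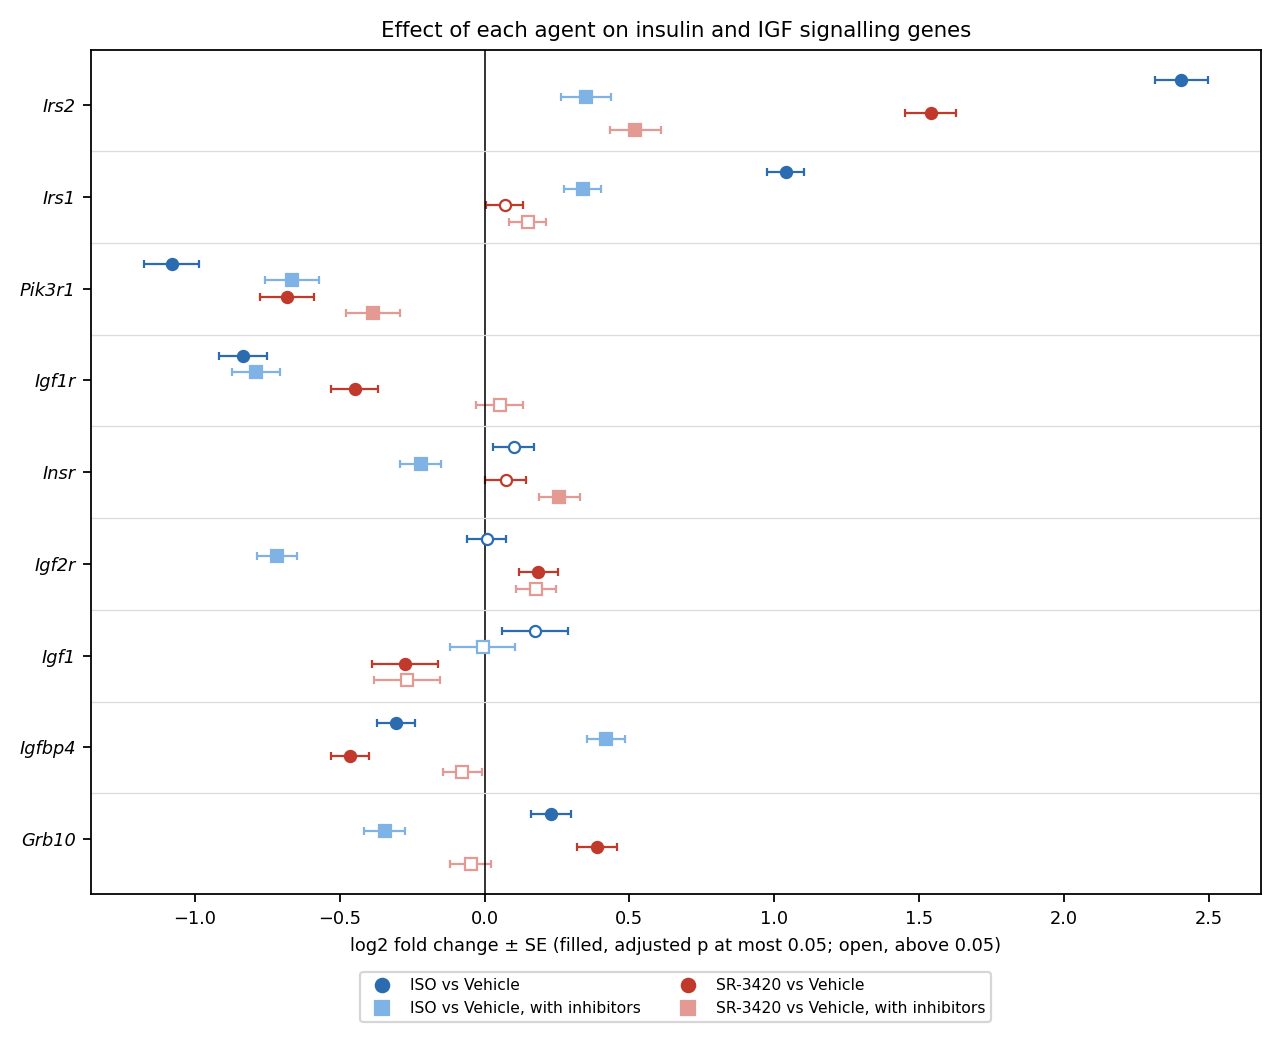
log2 fold change ± SE (horizontal axis) of the 9 genes with ISO and with SR-3420 against Vehicle, without inhibitors (circles) and with them (squares); filled symbols have an adjusted p of at most 0.05 and open symbols do not. For Irs2 the circles lie at 2.41 and 1.54 and the squares at 0.35 and 0.52, whereas for Igf1r the circle and square of ISO lie side by side at -0.84 and -0.79.

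Of the receptors, IGF1R, the signalling receptor of IGF1, showed the clearest fall. Igf1r (chromosome 7, 75097143 to 75378553, plus strand) had 55.04, 53.2 and 51.1 CPM with Vehicle, 31.0, 29.8 and 28.4 CPM with ISO, and 37.8, 41.2 and 38.0 CPM with SR-3420. The 3 groups did not overlap, with ISO the lowest. With inhibitors the libraries had 50.5, 47.9 and 54.7 CPM with Vehicle, 29.9, 27.2 and 31.2 CPM with ISO, and 51.6, 59.2 and 50.1 CPM with SR-3420. The ISO libraries were as low as without inhibitors, and the SR-3420 libraries overlapped those of Vehicle.

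For Igf1r the log2 fold change with ISO was -0.84 ± 0.08 without inhibitors (adjusted p = 2.48e-08) and -0.79 ± 0.08 with them (adjusted p = 3.76e-08), and the interaction was 0.05 ± 0.12 (adjusted p = 0.806). With SR-3420 it was -0.45 ± 0.08 (adjusted p = 8.16e-05) and, with inhibitors, 0.05 ± 0.08 (adjusted p = 0.814), with an interaction of 0.50 ± 0.11 (adjusted p = 0.00237). The inhibitors thus went with a smaller effect of SR-3420 but with no detectable difference in that of ISO. ISO lowered Igf1r more than SR-3420 did, by -0.39 ± 0.08 (adjusted p = 0.00141).

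IGF2R, the mannose 6-phosphate receptor, clears IGF2 and carries no kinase. Igf2r (chromosome 17, 12875272 to 12962572, minus strand) had 98.6, 90.5 and 92.3 CPM with Vehicle, 96.7, 95.9 and 90.2 CPM with ISO, and 108, 110.0 and 102 CPM with SR-3420. With inhibitors it had 98.6, 92.4 and 109 CPM with Vehicle, 62.8, 62.4 and 57.8 CPM with ISO, and 116, 114 and 110.2 CPM with SR-3420. Lipase Inh. + ISO was the 1 group that stood far below the rest.

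For Igf2r the effect of ISO was 0.01 ± 0.07 without inhibitors (adjusted p = 0.938; -0.30 under total counts, adjusted p = 0.00475) and -0.72 ± 0.07 with them (adjusted p = 1.17e-08), with an interaction of -0.72 ± 0.10 (adjusted p = 5.5e-06). With SR-3420 the value was 0.19 ± 0.07 (adjusted p = 0.0255). This small rise lost its call without Vehicle replicate 2 (0.16, adjusted p = 0.0861) or 3 (0.17, adjusted p = 0.0685) and without SR-3420 replicate 1 (0.18, adjusted p = 0.0693) or 2 (0.17, adjusted p = 0.0801), and under total counts (0.03, adjusted p = 0.815).

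The insulin receptor itself, Insr (chromosome 8, 3150922 to 3279617, minus strand), varied little. It had 345, 348 and 365 CPM with Vehicle, 398, 366 and 370.2 CPM with ISO, and 394, 343 and 375 CPM with SR-3420. Its log2 fold change was 0.10 ± 0.07 with ISO (adjusted p = 0.238; -0.21 under total counts, adjusted p = 0.0233) and 0.07 ± 0.07 with SR-3420 (adjusted p = 0.402). With inhibitors it had 371, 339 and 379 CPM with Vehicle, 319.7, 307 and 308 CPM with ISO, and 408, 480.2 and 417 CPM with SR-3420. There the ISO libraries were all lower and the SR-3420 libraries all higher than those of Vehicle.

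For Insr the values with inhibitors were -0.22 ± 0.07 for ISO (adjusted p = 0.0103) and 0.26 ± 0.07 for SR-3420 (adjusted p = 0.0375). The call for SR-3420 was lost without Lipase Inh. + SR-3420 replicate 2, the shallow library and the highest of the 18 (0.19, adjusted p = 0.213), and without Lipase Inh. + Vehicle replicate 1 (0.28, adjusted p = 0.0858) or 2 (0.21, adjusted p = 0.178), and under total counts (0.14, adjusted p = 0.369). The ISO interaction was -0.32 ± 0.10 (adjusted p = 0.0164) and did not pass without ISO replicate 1 (-0.28, adjusted p = 0.0532) or under total counts (-0.24, adjusted p = 0.097).

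Igf1, which encodes the ligand of IGF1R (chromosome 10, 87321801 to 87399792, plus strand), was expressed by these cells with a wide spread between replicates. It had 141, 163 and 198 CPM with Vehicle, 189, 161 and 216 CPM with ISO, and 151, 115 and 148 CPM with SR-3420. With inhibitors it had 187, 183 and 179 CPM with Vehicle, 188, 174 and 184 CPM with ISO, and 139.6, 158 and 159 CPM with SR-3420. Both SR-3420 groups lay below both ISO groups and Lipase Inh. + Vehicle, while the widely spread Vehicle libraries overlapped every other group.

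For Igf1 the log2 fold change was 0.17 ± 0.11 with ISO (adjusted p = 0.206; 0.31 without Vehicle replicate 3, adjusted p = 0.0276) and -0.28 ± 0.11 with SR-3420 (adjusted p = 0.0472). The latter sat at the edge of the threshold. It was lost on leaving out any of 11 of the 18 libraries, that is, all but Vehicle replicate 1, ISO replicates 2 and 3, SR-3420 replicates 1 and 3 and Lipase Inh. + SR-3420 replicates 1 and 3. For 9 of the 11 the value stayed between -0.29 and -0.27, and it moved to -0.14 (adjusted p = 0.305) without Vehicle replicate 3 and to -0.16 (adjusted p = 0.26) without SR-3420 replicate 2. The call was also lost with relative log expression (RLE) scaling factors (-0.27, adjusted p = 0.0506). A fit of only the groups compared lost it too (-0.28, adjusted p = 0.0642). ISO and SR-3420 differed by 0.45 ± 0.11 (adjusted p = 0.00481).

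IGFBP4 binds IGFs and limits their access to receptors. Igfbp4 (chromosome 11, 98902574 to 98913957, plus strand) had 624, 514 and 537 CPM with Vehicle, 456, 431 and 469.6 CPM with ISO, and 410.2, 401 and 404 CPM with SR-3420. With inhibitors it had 479.5, 521 and 498 CPM with Vehicle, 664, 686 and 656 CPM with ISO, and 475, 458 and 487 CPM with SR-3420. Without inhibitors ISO lay below Vehicle, and with inhibitors ISO lay above it, without overlap in either case.

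The log2 fold change of Igfbp4 with ISO was -0.31 ± 0.07 (adjusted p = 0.000541) without inhibitors and 0.42 ± 0.07 (adjusted p = 1.2e-05) with them, the latter 0.20 under total counts (adjusted p = 0.0665), and the interaction was 0.73 ± 0.09 (adjusted p = 3.31e-06). With SR-3420 it was -0.46 ± 0.07 (adjusted p = 5.39e-06) and, with inhibitors, -0.08 ± 0.07 (adjusted p = 0.634), with an interaction of 0.39 ± 0.09 (adjusted p = 0.00373). Igfbp3, which encodes the main carrier of IGFs in blood, had 0 counts in 8 of the 18 libraries and at most 5 in any other, 23 in all. A count of 0 allows up to 0.141 to 0.704 CPM (3 counts, by library, counting error only), and no comparison was made. This range was taken over total counts, without the trimmed-mean factors of the other CPM values.

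GRB10 binds the activated insulin and IGF1 receptors and limits their signalling. Grb10 (chromosome 11, 11830502 to 11937423, minus strand) had 94.4, 95.6 and 106 CPM with Vehicle, 114, 117 and 116 CPM with ISO, and 136, 118 and 133 CPM with SR-3420. With inhibitors it had 117, 105 and 109 CPM with Vehicle, 89.2, 88.4 and 83.5 CPM with ISO, and 108, 98.9 and 112 CPM with SR-3420. Both agents lay above Vehicle without inhibitors, and ISO lay below Vehicle with them.

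The log2 fold change of Grb10 with ISO was 0.23 ± 0.07 (adjusted p = 0.00935) without inhibitors, but -0.08 under total counts (adjusted p = 0.492), and -0.34 ± 0.07 (adjusted p = 0.000249) with inhibitors. The interaction, -0.57 ± 0.10 (adjusted p = 0.000124), kept its call under total counts. With SR-3420 it was 0.39 ± 0.07 (adjusted p = 8.64e-05) and, with inhibitors, -0.05 ± 0.07 (adjusted p = 0.802), with an interaction of -0.44 ± 0.10 (adjusted p = 0.00235).

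Beside these members, 74 other genes of the pathway were listed, and 66 were tested. The 8 left out were the insulin genes Ins1 and Ins2, which had no count in any library, and Igfbp1, Igfbp2, Insrr, Irs4, Inpp5d and Grb14, with at most 19 counts in a library. With ISO, 16 of the 66 rose and 22 fell, beside 26.8% and 25.0% of all genes. Under total counts 9 rose and 39 fell, beside 12.3% and 49.4% of all genes. With SR-3420, 19 rose and 16 fell, beside 26.0% and 25.4% of all genes (13 and 21 under total counts, beside 16.0% and 35.9%). With the inhibitors present, ISO raised 20 and lowered 23, beside 29.4% and 28.3% of all genes (11 and 34 under total counts, beside 16.2% and 42.1%). There SR-3420 raised 7 and lowered 2, beside 2.99% and 1.36% (1 and 4 under total counts, beside 0.938% and 1.89%). The median log2 fold changes of the 66 were -0.06, 0.04, -0.05 and 0.03 in this order. The ISO interaction passed above 0 for 13 and below 0 for 19, beside 14.9% and 16.6% of all genes. Its numbers under total counts were 14 and 11, beside 2071 and 1464 of all 12156 genes. The SR-3420 interaction passed above 0 for 10 and below 0 for 10, beside 12.5% and 14.8% of all genes. Its numbers under total counts were 10 and 5, beside 12.9% and 10.2% of all genes. With ISO compared with SR-3420, 9 were higher and 13 lower, beside 15.8% and 13.9% of all genes (3 and 21 under total counts, beside 6.38% and 25.0%). The inhibitors alone changed 1, beside 0.913% of all genes. It was the phosphodiesterase gene Pde3b, through which AKT opposes cAMP, and it fell (log2 fold change -0.42 ± 0.06, adjusted p = 0.000447). Pde3b is named although it lies outside the rule for named genes. It rose with ISO by 0.85 ± 0.06 (adjusted p = 1.6e-10) and with ISO and inhibitors by 1.46 ± 0.06 (adjusted p = 1.81e-14). Its value with SR-3420 was 0.33 ± 0.06 and, with inhibitors, 0.41 ± 0.06. These values of Pde3b were not followed under total counts.

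By role, 5 of the 11 other adaptor genes rose and 3 fell with ISO, and 6 rose and 3 fell with SR-3420. Of all genes, 26.8% rose and 25.0% fell with ISO, and 26.0% rose and 25.4% fell with SR-3420. Counts by role were not made under total counts. Irs3, an IRS gene of rodent adipocytes, went against Irs1 and Irs2. It averaged 51.0 ± 3.30 CPM with Vehicle, 14.6 ± 1.87 with ISO and 24.6 ± 1.94 with SR-3420 (SD, n = 3), and log2 fold changes were -1.82 ± 0.14 (adjusted p = 2.96e-10) and -1.05 ± 0.13 (adjusted p = 5e-07). With inhibitors it fell as much with ISO (-1.73 ± 0.13, adjusted p = 2.79e-10, interaction 0.09 ± 0.19, adjusted p = 0.766), whereas with SR-3420 the value was 0.19 ± 0.12 (adjusted p = 0.5), with an interaction of 1.24 ± 0.18 (adjusted p = 2.02e-05).

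Sh2b2, an adaptor of the insulin receptor in adipocytes, averaged 156 ± 7.83 CPM with Vehicle, 398 ± 45.7 with ISO and 300.2 ± 15.5 with SR-3420. Its rise was 1.35 ± 0.09 with ISO (adjusted p = 2.6e-11) and 0.95 ± 0.09 with SR-3420 (adjusted p = 9.2e-09), and with inhibitors 0.94 ± 0.09 and 0.38 ± 0.09. The latter call was lost without Lipase Inh. + Vehicle replicate 1 (0.35, adjusted p = 0.077) or Lipase Inh. + SR-3420 replicate 1 (0.35, adjusted p = 0.0561), and under total counts (0.27, adjusted p = 0.166). The interactions were -0.42 ± 0.12 for ISO (adjusted p = 0.0109; -0.34 under total counts, adjusted p = 0.0735) and -0.57 ± 0.12 for SR-3420 (adjusted p = 0.00131).

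Among 12 other genes of PI3K subunits and phosphatases, 1 rose and 6 fell with ISO (26.8% and 25.0% of all genes). With SR-3420, 1 rose and 3 fell (26.0% and 25.4% of all genes). Pik3ip1, which encodes an inhibitor of the PI3K catalytic subunit, had the largest fall with ISO of the genes named here. It averaged 59.4 ± 7.73 CPM with Vehicle, 9.21 ± 1.33 with ISO, 13.9 ± 0.599 with SR-3420, 66.1 ± 3.14 with Lipase Inh. + Vehicle, 4.90 ± 1.34 with Lipase Inh. + ISO and 52.7 ± 5.87 with Lipase Inh. + SR-3420. Its log2 fold change was -2.69 ± 0.14 with ISO (adjusted p = 7.59e-13) and -3.69 ± 0.15 with ISO and inhibitors (adjusted p = 6.92e-15). With SR-3420 it was -2.09 ± 0.13 (adjusted p = 2.01e-11) and, with inhibitors, -0.34 ± 0.12 (adjusted p = 0.122; -0.45 under total counts, adjusted p = 0.0411), with interactions of -0.999 ± 0.206 for ISO (adjusted p = 0.000741) and 1.75 ± 0.17 for SR-3420 (adjusted p = 2.53e-07). The receptor phosphatase gene Ptprf was low, with 0 to 32 counts per library, and averaged 0.436 ± 0.336 CPM with Vehicle, 1.32 ± 0.361 with SR-3420, 1.17 ± 0.0907 with Lipase Inh. + Vehicle and 0.362 ± 0.327 with Lipase Inh. + SR-3420. Its SR-3420 interaction was -3.00 ± 0.75 (adjusted p = 0.00459), and between -3.70 and -2.49 with the call kept when single libraries were left out. The SR-3420 value without inhibitors was 1.71 ± 0.51 (adjusted p = 0.00789), a call lost without Vehicle replicate 1 (1.21, adjusted p = 0.0669), and that with inhibitors was -1.28 ± 0.54 (adjusted p = 0.237).

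Of 28 genes of the AKT, mTOR and FOXO branch, 10 rose and 10 fell with ISO (26.8% and 25.0% of all genes). With SR-3420, 9 rose and 8 fell (26.0% and 25.4% of all genes). Foxo3, one of the transcription factors held back by AKT, averaged 49.5 ± 6.94 CPM with Vehicle, 86.5 ± 7.25 with ISO and 37.3 ± 0.236 with Lipase Inh. + ISO. Its log2 fold change was 0.81 ± 0.10 with ISO (adjusted p = 6.43e-07) and -0.54 ± 0.10 with ISO and inhibitors (adjusted p = 0.000106), with an interaction of -1.35 ± 0.14 (adjusted p = 2.23e-07). With SR-3420, Foxo3 rose by 0.54 ± 0.10 (adjusted p = 0.000126), and its value with inhibitors was 0.12 ± 0.10 (adjusted p = 0.643). Foxo6 was low, with 4 to 84 counts per library, and fell by 2.22 ± 0.32 on the log2 scale with ISO (adjusted p = 4.17e-06). Its value was -2.45 ± 0.30 with ISO and inhibitors (adjusted p = 4.3e-07). With SR-3420 it was -1.25 ± 0.27 (adjusted p = 0.000589) and, with inhibitors, -0.74 ± 0.27 (adjusted p = 0.147). Deptor, which encodes an inhibitor of mTOR, averaged 439.6 ± 26.6 CPM with Vehicle and 330.4 ± 21.8 with ISO, and 431 ± 42.4 and 143 ± 13.8 in the same groups with inhibitors. Its fall was -0.41 ± 0.08 (adjusted p = 0.000274) and, with inhibitors, -1.59 ± 0.09 (adjusted p = 9.36e-13), with an interaction of -1.18 ± 0.12 (adjusted p = 1.06e-07).

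The inhibitor genes were split. With ISO, 1 of 5 passed the test, being lower (25.0% of all genes), and with SR-3420, 3 passed, all higher (26.0% of all genes). Trib3, whose product can bind AKT and whose gene is induced in cell stress, averaged 254 ± 20.0 CPM with Vehicle and 256 ± 14.3 with ISO, but 308 ± 36.0 with Lipase Inh. + Vehicle and 60.5 ± 6.89 with Lipase Inh. + ISO. The log2 fold change was 0.01 ± 0.09 without inhibitors (adjusted p = 0.938; -0.30 under total counts, adjusted p = 0.0199) and -2.36 ± 0.10 with them (adjusted p = 1.34e-14), and the interaction was -2.37 ± 0.13 (adjusted p = 1.98e-11). With SR-3420 and no inhibitors, Trib3 rose by 0.51 ± 0.09 (adjusted p = 6.59e-05). Socs3, which encodes a suppressor of cytokine and insulin receptor signalling, went the other way from Trib3 with ISO and inhibitors. It averaged 26.99 ± 2.88 CPM with Lipase Inh. + Vehicle and 72.9 ± 7.69 with Lipase Inh. + ISO. Its log2 fold change was 0.10 ± 0.13 with ISO (adjusted p = 0.534; -0.21 under total counts, adjusted p = 0.18) and 1.43 ± 0.12 with inhibitors (adjusted p = 1.5e-09), with an interaction of 1.33 ± 0.17 (adjusted p = 4.12e-06). The 1 that fell with ISO was Socs1, with 4 to 45 counts per library and a value of -1.21 ± 0.35 (adjusted p = 0.00664), which did not pass without Vehicle replicate 1 (-0.96, adjusted p = 0.0533).

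Of 9 other genes listed with the ligands and binding proteins, proteases among them, 2 passed with each agent, all lower. Of all genes, 25.0% fell with ISO and 25.4% with SR-3420. Igfals, which encodes the acid-labile subunit of the IGF carrier complex, was low at 5.66 ± 0.479 CPM with Vehicle, 1.72 ± 0.154 with ISO and 2.19 ± 0.435 with SR-3420. The log2 fold changes were -1.73 ± 0.23 (adjusted p = 1.35e-06) and -1.35 ± 0.21 (adjusted p = 1.52e-05).

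**Figure D4:**
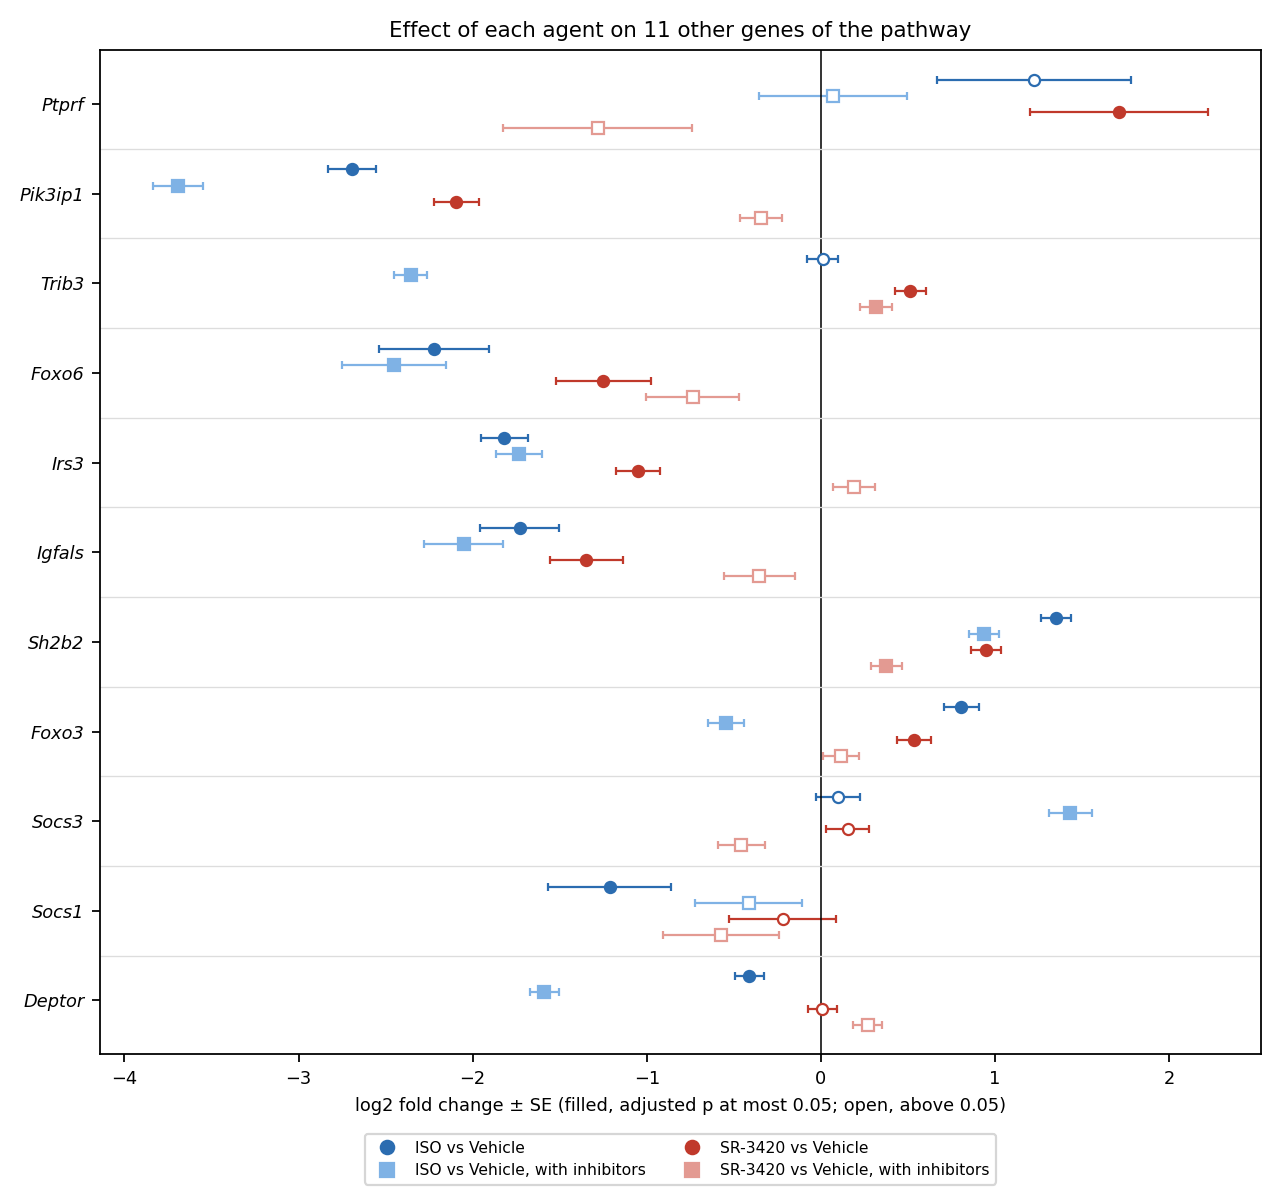
log2 fold change ± SE (horizontal axis) of 11 other pathway genes named by rule, with ISO and with SR-3420 against Vehicle, without inhibitors (circles) and with them (squares); filled symbols have an adjusted p of at most 0.05. Pik3ip1 lies at -2.69 with ISO and -3.69 with ISO and inhibitors, and Trib3 and Socs3 at 0.01 and 0.10 with ISO but at -2.36 and 1.43 with ISO and inhibitors.

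The 3 members whose group means spread most were Irs2, Pik3r1 and Igf1r, with SDs of 0.94, 0.44 and 0.41 over the 6 means of log2 CPM. The genes most like them were sought by Pearson's r of log2 CPM over the 18 libraries among the 9411 genes whose mean log2 CPM was 3 or more, as a description, since the libraries share groups and treatments. Irs2 was most like 9330159F19Rik (r = 0.99), Ccrn4l (0.98), the circadian gene nocturnin, and Zhx2 (0.97). Pik3r1 was most like Pomk (0.97), Kank2 (0.96) and Pomgnt2 (0.96). Among the 3 genes most like Igf1r were Znf512b (0.98) and Slc8b1 (0.98). The median r over all these genes lay between -0.08 and 0.01.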

How the data were processed

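The authors prepared TruSeq libraries, mapped reads to mm9 with STAR (2.4.2a in the submitters' processing notes), and summarised reads per gene with HOMER and iRNA-seq. Their methods keep 1 read per position and length, which can lower the counts of abundant short genes. The deposited table holds counts that are not normalised, for 20295 genes in 18 columns. Groups and replicate numbers came from sample titles. Replicates are given as independent experiments.

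The analysis used edgeR 4.0.16 in R 4.3.3. filterByExpr (minimum count 10, minimum total 15) kept 12156 genes. Libraries were scaled by TMM factors, 1 quasi-likelihood model was fitted over all 18 libraries, and Benjamini-Hochberg adjustment covered all genes tested. DESeq2 1.42.0, other scalings and filters, thinned libraries, a replicate block and each library left out were alternatives. The test was checked on simulated counts. Replicates differed by more than sampling noise. Starts in the table count from 0 and are printed from 1.

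The members, the pathway list and the markers were chosen with earlier results of these data known. Named genes were all members and, of the other pathway genes, at most 12 past an adjusted p of 0.05 and a log2 fold change of 1 in size for ISO, SR-3420, the inhibitors alone or either interaction, with the largest changes. For the 3 members of highest SD over group means, the 3 most correlated genes were also named. A pathway gene and a correlated gene that this rule selects are not reported here.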

Additional observations from a re-analysis of the deposited data

Results flagged for a closer look

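The effect of ISO differed with and without lipase inhibitors for 7 of the 9 genes tested, by the interaction term of edgeR's quasi-likelihood test (3 libraries a group). Of all genes, this term passed above 0 for 14.9% and below 0 for 16.6%. On the log2 scale, the effect with inhibitors minus that without was -2.06 for Irs2 and -0.70 for Irs1, the adaptors, -0.72 for Igf2r and -0.32 for Insr, the receptors, and -0.57 for Grb10, the inhibitor of receptor signalling. It was 0.73 for Igfbp4 and 0.42 for Pik3r1. The call for Insr was lost under total counts (adjusted p = 0.097) and without ISO replicate 1 (adjusted p = 0.0532). That for Pik3r1 was lost without Vehicle replicate 2 (adjusted p = 0.0664) or Lipase Inh. + Vehicle replicate 3 (adjusted p = 0.0638). For Irs2 and Irs1 the effect of ISO kept its sign with inhibitors and was smaller, whereas for Igfbp4 and Grb10 it passed the test in opposite directions without and with them, the rise of Grb10 without inhibitors being -0.08 under total counts.

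The effect of SR-3420 differed in the same way for 4 genes, by -1.02 for Irs2, -0.44 for Grb10, 0.50 for Igf1r and 0.39 for Igfbp4. Of all genes, 12.5% passed above 0 and 14.8% below. For Igf1r the interaction passed for SR-3420 and did not for ISO, and the difference between the 2 interactions was not tested.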

How the results depend on the processing

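Over the settings other than leaving out a library, 346 of the 360 values of called member changes kept direction and call, 13 lost the call and 1 changed sign, and when single libraries were left out 695 of 720 kept both and none changed sign. The cause of a change was not tested. Scaling by total counts gave 5 members past the threshold for ISO with inhibitors, 1 of them past a log2 fold change of 1, 5 other pathway genes for SR-3420 with inhibitors (9 in the report), and 0 members past a log2 fold change of 1 in the SR-3420 interaction (1 in the report), as thinning all libraries to 4263755 counts also did. Fitting only the groups compared gave 1 member and 4 other pathway genes for SR-3420 with inhibitors. With single libraries left out, the first of these counts was 1 to 3 (1 without Lipase Inh. + Vehicle replicate 1 or 2) and that of the SR-3420 interaction 0 to 1. Shares of all genes called were not counted for thinned libraries, for only the groups compared or for left-out libraries.

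Sign changes under total counts were -0.13 for Igf1, -0.21 for Insr, -0.30 for Igf2r, -0.077 for Grb10, -0.30 for Trib3 and -0.21 for Socs3 with ISO. They were -0.087 for Insr, -0.091 for Irs1, -0.0060 for Socs3 and -0.15 for Deptor with SR-3420, -0.16 for Ptprf with ISO and inhibitors, -0.052 for Igf1r with SR-3420 and inhibitors, 0.044 for Igf2r in the SR-3420 interaction and -0.12 for Insr between agents. Thinned libraries gave -0.027 for Igf2r and -0.0010 for Trib3 with ISO, 0.048 for Socs1 with ISO and inhibitors, 0.070 for Igf2r in the SR-3420 interaction and -0.0066 for Insr between agents. A fit of only the groups compared gave -0.0055 for Igf2r and -0.0031 for Trib3 with ISO, and no filter gave 0.0014 for Igf1 with ISO and inhibitors and -0.0037 in the SR-3420 interaction. Of these, Grb10 alone was called in the report.

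Without single libraries, values that changed sign, none of them called, ranged from -0.016 to 0.047 (Igf2r), -0.033 to 0.077 (Trib3) and -0.068 to 0.18 (Socs3) with ISO, -0.46 to 0.034 (Socs1) and -0.025 to 0.062 (Deptor) with SR-3420, -0.026 to 0.023 (Igf1) and -0.076 to 0.25 (Ptprf) with ISO and inhibitors, -0.0061 to 0.11 (Igf1r) with SR-3420 and inhibitors, -0.014 to 0.18 (Pik3r1) with inhibitors alone, -0.48 to 0.17 (Foxo6) and -0.0088 to 0.23 (Irs3) in the ISO interaction, -0.12 to 0.12 (Igf1) and -0.060 to 0.057 (Igf2r) in the SR-3420 interaction, and -0.026 to 0.074 (Insr) between agents.

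Same-numbered libraries were not treated as pairs. Of 45 same-number pairs, 28 had deviations correlated over 0.1 (mean r 0.11), and 12 of 18 libraries correlated best with their own number, a hint from the data and not the design. With the replicate number as a block, 6 members passed for ISO and 7 for SR-3420, 5 for the SR-3420 interaction (4 without the block; Pik3r1 0.30, adjusted p = 0.012) and 6 between agents (5 without the block; Igf2r -0.18, adjusted p = 0.0354), and Igf1 in the SR-3420 interaction was -0.0025, not called either way. The block changed the call of no other member. The shares of all genes called with the block were not counted, so these member counts cannot be set against them.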
